A study of Rattus norvegicus with 6 samples.

Results

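The genes that make, move and use lactate and pyruvate in the liver were read here together with Ep300, which encodes the acetyltransferase p300. They were taken by name from the deposited gene table: Ldha, Ldhb and Ldhd (lactate dehydrogenases), Slc16a1 and Slc16a7 (carriers of the plasma membrane), Mpc1 and Mpc2 (the mitochondrial pyruvate carrier), Pdha1 and Pdk2 (pyruvate dehydrogenase and a kinase that inhibits it) and Ep300. All 10 genes were found, each on 1 row, among 32930 gene rows. All 10 also passed the filter on low counts, which kept 18455 genes.

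Liver RNA was sequenced from 3 animals fed a high-fat diet with the vehicle 0.5% CMC-Na (HFD group) and from 3 animals fed a high-fat diet and given the Huazhuo Tiaozhi granule, a herbal preparation (HTG group). All animals thus received the high-fat diet, over an intervention that the labels put at 12 weeks. In the paper's rat experiment the diet ran for 12 weeks and the gavage began only after its first weeks. The 12 weeks of the labels need not be the time on the preparation. The treatment label of the HTG libraries spells the preparation HCG. The species was not settled: the labels say rat, the sequencing methods of the paper say C57BL/6 J mice, and the gene identifiers are those of mouse Ensembl genes, which is how the rows are read here. No group on a normal diet was analysed here, so the values compare treated with untreated animals on the diet and say nothing about the diet itself.

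Pyruvate is the end product of glycolysis. Lactate dehydrogenase converts it to lactate and back, monocarboxylate carriers move both across the plasma membrane, and the mitochondrial pyruvate carrier brings pyruvate to the pyruvate dehydrogenase complex, which makes acetyl-CoA for the citric acid cycle. The liver is a main site where circulating lactate is taken up and returned to glucose. Lactate is also the source of lysine lactylation, a mark on histones and other proteins that is the theme of the study, and p300 has been proposed as an enzyme that writes it. RNA levels do not measure lactate, lactylation or the activity of any of these enzymes.

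The libraries held between 50648778 (HTG library 3) and 90563477 (HTG library 2) estimated counts. Low counts came in steps of about 4, so a sequenced fragment was taken as worth 4 counts, and the limit that an empty gene allows was set at 3 fragments, or 12 counts. That limit covers counting error only. All 8 hepatocyte markers were above it in every library. Their summed level in CPM (counts scaled to the normalised total of each library) was 88465 to 101847 in the HFD group. It was 87212.5 to 88705 in the HTG group, and Alb alone gave 53506 to 74503 over the libraries. HTG library 1 did not divide cleanly from the HFD group: across the genes tested, which are not independent replicates, the highest correlation of log2 CPM between any pair was that of HFD library 1 with HTG library 1 (r = 0.9800). HFD libraries 1 and 3 followed closely (0.9797), and HTG library 1 had 0.978 and 0.975 with HTG libraries 2 and 3. These 2 correlated with the HFD libraries at 0.967 at most, below every pair within a group (0.972 or more). Below, the values of a group stand in the order of its libraries 1, 2 and 3. Transcripts of the mitochondrial chromosome took 4.97% to 6.45% of the counts in the HFD group and 9.31% to 15.2% in the HTG group. Scaling without them moved the median log2 fold change of all genes by -0.0018 and left 3 of the 10 genes lower at an unadjusted p under 0.05, in place of the 4 described next.

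Of the 10 genes, 4 had a lower level in the HTG group at an unadjusted p under 0.05, and 0 had a higher level (edgeR's quasi-likelihood test). These were Pdha1, Slc16a1, Pdk2 and Slc16a7. By the same rule 12.4% of all genes tested were lower, 12.3% were higher, and 24.7% passed in either direction. None of the 10 had an adjusted p under 0.05 in this test, a level that 0.0108% of all genes reached. The same count was 2 in DESeq2, for Pdha1 and Slc16a1, where 2401 of the 18455 genes tested reached that level. The fitted value was lower in the HTG group in 9 of the 10 genes, beside 8933 of the 18455 genes tested. The median log2 fold change of the 10 was -0.47, beside 0.025 over all genes tested. The median log2 fold change of cell type marker lists was -0.47 for hepatocytes, -0.44 for macrophages, -0.27 for stellate cells and -0.14 for red cells. It was -0.0079 for cholangiocytes, 0.059 for leukocytes and 0.30 for endothelial cells. Hepatocyte markers differed in sign, from -1.62 (Cps1) to 1.24 (Apoa1). In bulk tissue, fewer cells of a type and less RNA per cell cannot be told apart. The count of 4 became 2 without HFD library 1, HFD library 2 or HTG library 2, and 1 without HTG library 3. Lower calls over all genes, 2288 of 18455 with all libraries, fell in these fits as well. They numbered 2188 of 19391 without HFD library 1 and 1881 of 19352 without HFD library 2. Without HTG library 2 they were 1545 of 19095, and without HTG library 3 they were 1674 of 19248.

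**Figure D1:**
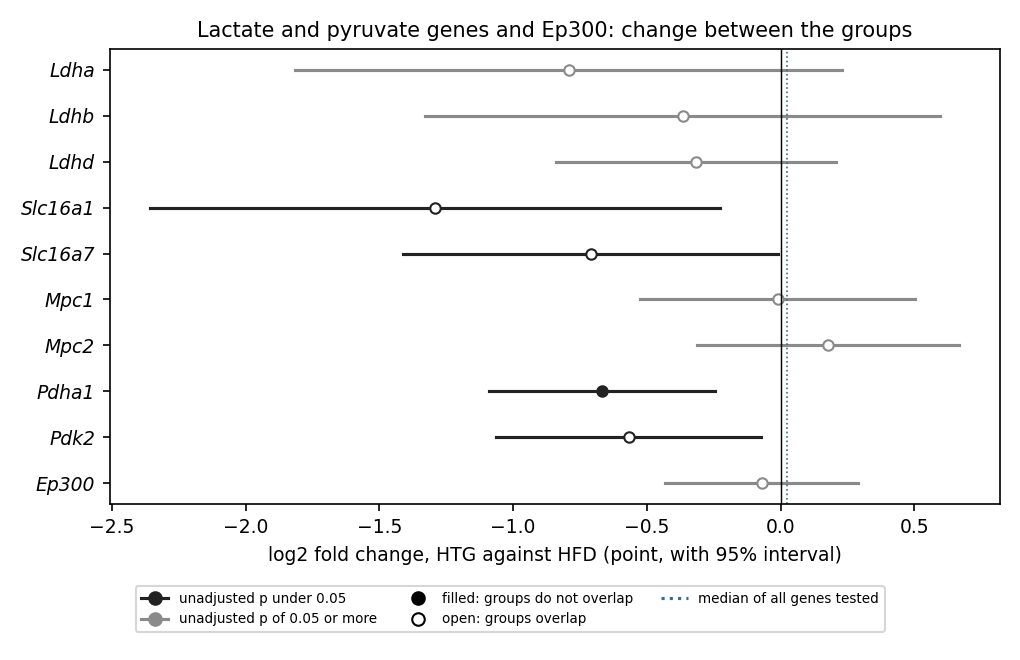
Log2 fold change of each gene, HTG against HFD, from edgeR's quasi-likelihood fit (points) with its 95% interval (lines). Dark lines mark the 4 genes with an unadjusted p under 0.05, and the only filled point, Pdha1, marks the gene whose groups did not overlap in normalised counts. The dotted line is the median of all genes tested, 0.025.

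Ldha (ENSMUSG00000063229, chromosome 7, 46490899 to 46505051) encodes the muscle-type subunit of L-lactate dehydrogenase. It was the most abundant of the 10 genes per length, with 175, 359 and 165 FPKM (fragments scaled by gene length and by the library total) in the HFD libraries, against 199, 81.0 and 115 in the HTG libraries. HFD library 2 stood above all others, and HTG library 1 lay above HFD libraries 1 and 3, so the groups overlapped. The log2 fold change was -0.79 (standard error 0.45, 95% interval -1.81 to 0.23, adjusted p = 0.313 by the quasi-likelihood test of edgeR), a range from 0.284-fold to 1.17-fold. Without HFD library 2 it was -0.27, and without HTG library 1 it was -1.25 with an unadjusted p of 0.0265. DESeq2 gave an unadjusted p of 0.0475 and an adjusted p of 0.176. The pseudogene row Ldha-ps2 held 11 to 60 counts. Copies of Ldha under other names were not looked for.

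Ldhb (ENSMUSG00000030246, chromosome 6, 142435975 to 142453683) encodes the heart-type subunit, and it was the least abundant of the 10. Its counts were 109, 214 and 155 in the HFD libraries, against 213, 141 and 57 in the HTG libraries, or between 14.2 and 53.5 fragments. At this depth the 95% interval ran from -1.33 to 0.60 around a log2 fold change of -0.37, and no difference between the groups was detectable. Markers of red cells, which also contain this subunit, summed to 235 to 430 CPM in the HFD group and to 260 to 486 in the HTG group, and their part in the Ldhb values was not tested.

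The level of Ldha per length was between 88.0 and 196 times that of Ldhb in every library. The ratio was 173, 196 and 122 in the HFD libraries, against 123, 88.0 and 174 in the HTG libraries. The groups overlapped, and the difference in log2 ratio was -0.38 (exact two-sided permutation test, p = 0.5, adjusted p = 0.625 over the 5 ratios compared). With 3 libraries against 3, the exact permutation test cannot give a p below 0.1.

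Ldhd (ENSMUSG00000031958, chromosome 8, 112350417 to 112356967) encodes the mitochondrial dehydrogenase of D-lactate, the mirror form that arises from methylglyoxal. It had 43.2, 41.7 and 47.7 FPKM in the HFD libraries, against 40.5, 26.7 and 35.2 in the HTG libraries. By FPKM every HTG library lay below every HFD library, while by normalised counts HTG library 1 (231 CPM) lay just above HFD library 1 (230 CPM). The estimate of its log2 fold change, -0.32 with a standard error of 0.23, had an adjusted p of 0.425 (95% interval -0.84 to 0.21). Ldhd overlaps Znrf1 on the opposite strand, which had 2301 to 11582 counts, and whether counting used the strand is not given in the sources used here. Glo1 and Hagh, the glyoxalases that turn methylglyoxal into D-lactate, had log2 fold changes of -0.19 and -0.13, both with overlapping groups.

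Slc16a1 (ENSMUSG00000032902, chromosome 3, 104545984 to 104565778) encodes MCT1, a proton-coupled carrier of lactate and pyruvate. Its FPKM was 4.47, 12.8 and 9.33 in the HFD libraries, against 5.62, 2.28 and 2.77 in the HTG libraries. HTG libraries 2 and 3 lay below all HFD libraries, while HTG library 1 lay above HFD library 1. The log2 fold change was -1.29 (standard error 0.47, 95% interval -2.36 to -0.23), the largest of the 10 in size, with an unadjusted p of 0.0232 and an adjusted p of 0.137 in edgeR's quasi-likelihood test. DESeq2 gave it an adjusted p of 0.0286. Without HFD library 2 the log2 fold change was -0.86 (unadjusted p = 0.0939), and the unadjusted p was also above 0.05 without HTG library 2 (0.0769) or HTG library 3 (0.0706).

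Slc16a7 (ENSMUSG00000020102, chromosome 10, 125055139 to 125225237) encodes MCT2, a carrier of the same family with a higher affinity for its substrates. It had 7.41, 9.17 and 6.19 FPKM in the HFD libraries, against 6.35, 4.62 and 2.73 in the HTG libraries. Here too only HTG library 1 reached into the HFD range, just above HFD library 3. The log2 fold change was -0.71 (standard error 0.31, 95% interval -1.41 to -0.010, unadjusted p = 0.0474, adjusted p = 0.196). Its unadjusted p was above 0.05 without HFD library 1 (0.0755), HFD library 2 (0.162), HTG library 2 (0.112) or HTG library 3 (0.154). Without HFD library 1 the log2 fold change was -0.76, larger in size, with a standard error of 0.37. Scaling by the upper quartile (0.0526) or without the mitochondrial chromosome (0.0502) also put the unadjusted p just above 0.05.

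Both carriers were at a like level per length, and the Slc16a1 to Slc16a7 ratio lay between 0.494 and 1.51 over the libraries. It was 0.603, 1.40 and 1.51 in the HFD libraries, against 0.885, 0.494 and 1.01 in the HTG libraries, so the groups overlapped (exact two-sided permutation test, p = 0.4, adjusted p = 0.625). The other genes of lactate and pyruvate transport gave 0 calls of the 3 tested, beside 24.7% of all genes in either direction. Bsg, the chaperone that carries MCT1 to the membrane, was abundant at 187 ± 11.9 FPKM (SD, n = 3) in the HFD group and 160 ± 31.9 in the HTG group (log2 fold change -0.16). Slc16a3, which encodes the lactate exporter MCT4 of glycolytic cells, had 0.39, 0.56 and 0.87 FPKM in the HFD libraries, against 0.30, 0.27 and 0.43 in the HTG libraries (log2 fold change -0.80, adjusted p = 0.256). Emb, a chaperone for MCT2, stood at 0.327 and 0.260 FPKM on average. Slc16a8 and Slc5a8 had at most 15 and 8 counts in any library and were not tested, Slc5a12 had no row, and the lactate receptor gene Hcar1 had 0 counts in all libraries, which allows up to 12 counts in each.

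**Figure D2:**
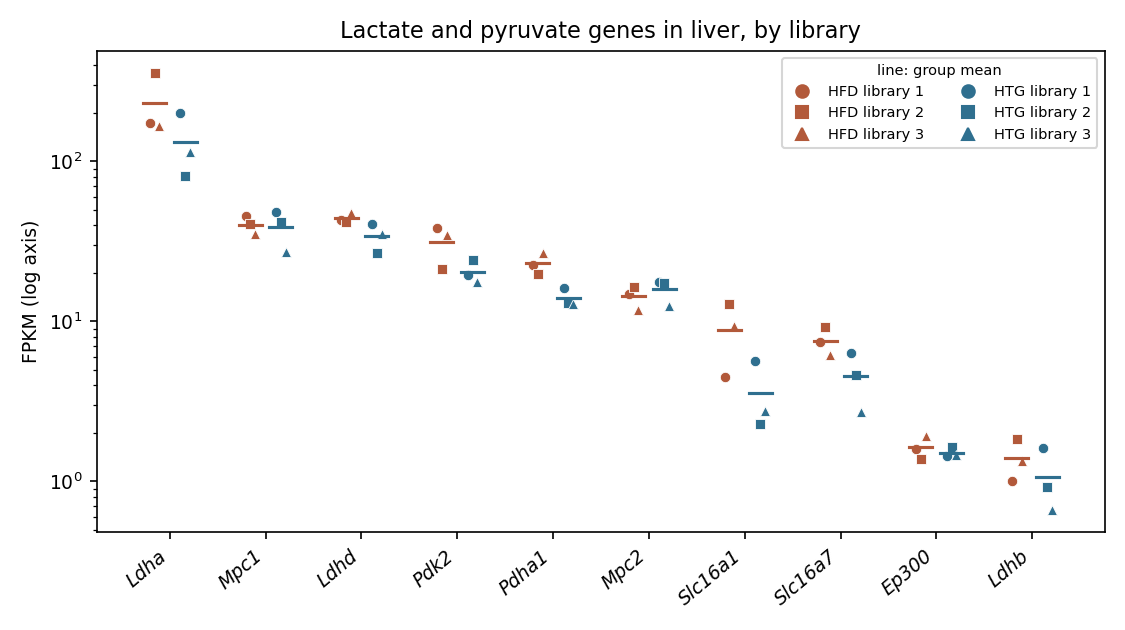
FPKM on a log axis for the 10 genes in order of their mean level, with a point for each library and a line for each group mean. Ldha stands apart at 81.0 to 359 FPKM, Ep300 and Ldhb lie between 0.66 and 1.93, and the HTG and HFD points overlap for 8 of the 10 genes on this scale, all but Pdha1 and Ldhd.

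By mean FPKM the order was Ldha (182), Mpc1 (39.6), Ldhd (39.2), Pdk2 (25.9), Pdha1 (18.5), Mpc2 (15.1), Slc16a1 (6.22), Slc16a7 (6.08), Ep300 (1.58) and Ldhb (1.23). Ldha was apart from Mpc1, and Slc16a7 was apart from Ep300, in the sense that their ranges over the 6 libraries did not meet. All other neighbours in this order overlapped. Over the libraries, Slc16a1 spanned a 5.63-fold range and Ldha a 4.43-fold range, against 1.39-fold for Ep300 and 1.51-fold for Mpc2. Within the HFD group the coefficient of variation of CPM was 53.2% for Ldha and 52.2% for Slc16a1, beside a median of 24.0% over all genes tested.

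Mpc1 (ENSMUSG00000023861, chromosome 17, 8501736 to 8516493) and Mpc2 (ENSMUSG00000026568, chromosome 1, 165288206 to 165308783) encode the paired subunits of the mitochondrial pyruvate carrier. Mpc1 had 45.4, 40.4 and 35.0 FPKM in the HFD libraries, against 48.2, 41.7 and 27.2 in the HTG libraries. Mpc2 had 14.9, 16.3 and 11.7 in the HFD libraries, against 17.7, 17.4 and 12.5 in the HTG libraries. Neither passed the test, and in both HTG library 1 held the highest value. The 95% interval of the log2 fold change ran from -0.52 to 0.50 for Mpc1 (estimate -0.011, adjusted p = 0.983) and from -0.31 to 0.67 for Mpc2 (estimate 0.18, adjusted p = 0.645). The sign of the Mpc1 estimate was not stable: it was 0.025 with upper-quartile scaling and 0.16 without HTG library 3.

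Which subunit appears more abundant depended on the unit. The Mpc1 to Mpc2 ratio was between 2.17 and 3.05 in FPKM and between 0.615 and 0.864 in counts. The FPKM values follow from the counts through a length of about 2.19 kb for Mpc1 and 7.72 kb for Mpc2, if 4 counts are read as a fragment. The difference in log2 ratio between the groups was -0.22 in either unit (exact two-sided permutation test, p = 0.2, adjusted p = 0.625). Mpc1 also has a pseudogene, Mpc1-ps, named here after its values were seen, with 3890, 3685 and 3784 counts in the HFD libraries, against 3192, 2405 and 1091 in the HTG libraries. A near-identical copy can take counts from its parent gene, so the Mpc1 values are uncertain. Mpc1-ps had a log2 fold change of -0.89 (unadjusted p = 0.00489), and the sum of both rows was 142 ± 13.8 CPM in the HFD group and 116 ± 30.4 in the HTG group (SD, n = 3 per group), with HTG library 1 inside the HFD range.

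Pdha1 (ENSMUSG00000031299, chromosome X, 158905205 to 158921409) encodes the catalytic alpha subunit of pyruvate dehydrogenase, which commits pyruvate to acetyl-CoA. It had 22.5, 19.9 and 26.7 FPKM in the HFD libraries, against 16.1, 13.0 and 12.8 in the HTG libraries. Every HTG library lay below every HFD library, in FPKM and in normalised counts. Among the genes tested, 15.5% had groups that did not overlap with HTG lower, and 32.1% in either direction. The log2 fold change was -0.67 (standard error 0.18, 95% interval -1.09 to -0.25), or 0.629-fold, with an unadjusted p of 0.00631 and an adjusted p of 0.0833 in edgeR's quasi-likelihood test. It stayed between -0.83 and -0.57 in all 19 alternative fits, each with an unadjusted p under 0.05, and DESeq2 alone gave an adjusted p under 0.05 (0.0145). Map3k15, which overlaps Pdha1 on the opposite strand, held 51 to 201 counts.

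The other subunits of the complex had the same direction. Pdhb is the partner of Pdha1 in the first enzyme, Dlat the acetyltransferase core, Dld the dehydrogenase that reoxidises the core and Pdhx the protein that binds Dld to it. Pdhb had 21.3, 20.5 and 34.7 FPKM in the HFD libraries, against 15.1, 17.1 and 11.2 in the HTG libraries. Dld had 20.9, 22.1 and 27.4 in the HFD libraries, against 15.3, 11.3 and 11.5 in the HTG libraries. In both, every HTG library lay below every HFD library. Dlat had 6.1, 7.2 and 10.3 FPKM in the HFD libraries, against 4.88, 4.22 and 3.45 in the HTG libraries. Pdhx had 3.75, 4.80 and 5.06 in the HFD libraries, against 3.26, 2.20 and 1.69 in the HTG libraries. With Pdha1, all 5 subunit genes had an unadjusted p under 0.05 and groups that did not overlap. Their log2 fold changes lay between -0.89 (Pdhx) and -0.67 (Pdha1) and their adjusted p-values between 0.0656 and 0.0980 (edgeR's quasi-likelihood test). Of all genes tested, 12.4% were lower at an unadjusted p under 0.05 and 15.5% had groups without overlap, HTG lower. An adjusted p under 0.1 was reached by 10.8% of all genes tested. The group of 5 joins Pdha1 to part of a longer list, given below, and was not a planned list. Each of the 5 genes kept an unadjusted p under 0.05 in all 19 alternative fits. The Pdha1 to Pdhb ratio lay between 0.758 and 1.15 over the libraries, with overlapping groups (difference in log2 ratio 0.080, exact two-sided permutation test, p = 0.7).

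Pdk2 (ENSMUSG00000038967, chromosome 11, 94917084 to 94932180) encodes a pyruvate dehydrogenase kinase, which phosphorylates the complex and switches it off. It had 38.1, 21.3 and 34.7 FPKM in the HFD libraries, against 19.4, 24.3 and 17.6 in the HTG libraries. HFD library 2 lay within the HTG range and the other HFD libraries above it. The log2 fold change was -0.57 (standard error 0.22, 95% interval -1.06 to -0.072, unadjusted p = 0.0294, adjusted p = 0.154). Its unadjusted p was above 0.05 without HFD library 1 (0.116), HFD library 3 (0.0752), HTG library 1 (0.0627) or HTG library 3 (0.0988), and 0.00486 without HFD library 2.

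Pdk2 was the most abundant of the kinase genes per length in every library. In the HFD group it had 31.4 ± 8.89 FPKM, against 8.71 ± 5.40 for Pdk1, 3.04 ± 3.14 for Pdk4 and 0.417 ± 0.137 for Pdk3 (SD, n = 3 each). Pdk4, the kinase gene known to rise on fasting, had 0.75, 6.62 and 1.74 FPKM in the HFD libraries, against 0.84, 0.14 and 0.49 in the HTG libraries. HFD library 2 thus carried most of its level, and HTG library 1 lay above HFD library 1. Its log2 fold change of -2.61 (standard error 0.90, unadjusted p = 0.0192) was between -3.30 and -1.18 over the alternatives, and leaving out HFD library 2 gave an unadjusted p of 0.127, which was also above 0.05 when HTG library 2 was left out. The Pdk2 to Pdk4 ratio ran from 3.21 in HFD library 2 to 174 in HTG library 2, with overlapping groups (exact two-sided permutation test, p = 0.4). Pdk1 had 6.12, 5.09 and 14.9 FPKM in the HFD libraries, against 3.94, 4.74 and 3.35 in the HTG libraries, without overlap (log2 fold change -1.07, adjusted p = 0.123). Its unadjusted p was 0.0570 without HTG library 3. Pdk3 had 11 to 96 counts in a library and did not pass the test (log2 fold change -1.44).

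The phosphatases that switch the complex back on had lower fitted values as well. Pdpr, the regulatory subunit, had 0.58, 0.94 and 1.21 FPKM in the HFD libraries, against 0.29, 0.45 and 0.37 in the HTG libraries, without overlap (log2 fold change -1.26, adjusted p = 0.0796). The catalytic subunits Pdp1 and Pdp2 had log2 fold changes of -0.35 and -0.39 and did not pass the test. Over the list of 10 further genes of the complex and its regulators, 7 had a lower level in the HTG group by the threshold of 0.05 on the unadjusted p and 0 a higher level, beside 12.4% and 12.3% of all genes, and 0 had an adjusted p under 0.05. The count of 7 was 6 to 8 in every alternative fit, including the fit without HFD library 2 (6). The median log2 fold change of the list was -0.88.

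**Figure D3:**
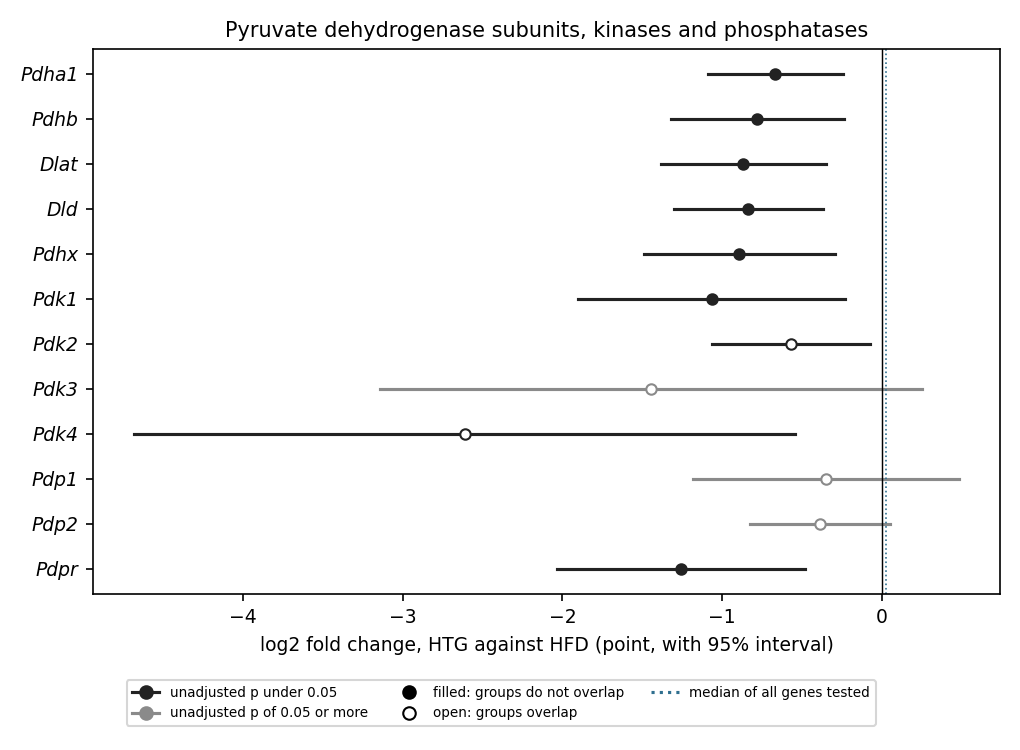
Log2 fold change, HTG against HFD, with its 95% interval for Pdha1, Pdk2 and the 10 further genes of the pyruvate dehydrogenase complex, its kinases and its phosphatases. All 12 points lie below 0, as do 8933 of the 18455 genes tested. The 5 subunit genes lie between -0.89 and -0.67, and Pdk4 has the widest interval, from -4.68 to -0.55.

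Other enzymes that make or use pyruvate and lactate were read from a further list of 15 genes, of which 13 were tested. At an unadjusted p under 0.05, 4 were lower (Pkm, Me1, Gpt2 and Pcx) and 1 was higher (Agxt), beside 12.4% and 12.3% of all genes, and 0 had an adjusted p under 0.05. Pkm, the pyruvate kinase of most tissues other than the hepatocyte, had 9.87, 13.6 and 19.2 FPKM in the HFD libraries, against 7.28, 4.38 and 4.03 in the HTG libraries (log2 fold change -1.40, adjusted p = 0.0612). Pcx, pyruvate carboxylase, which starts glucose synthesis from lactate, had 81.1, 86.2 and 98.4 FPKM in the HFD libraries, against 68.8, 46.7 and 55.3 in the HTG libraries (log2 fold change -0.58, unadjusted p = 0.0342). Without HFD library 2, HFD library 3, HTG library 2 or HTG library 3 the unadjusted p of Pcx was above 0.05, up to 0.0936. Pklr, the liver's own pyruvate kinase, did not pass the test, at 90.2 ± 100 FPKM in the HFD group and 28.3 ± 12.7 in the HTG group (SD, n = 3). Me1, the malic enzyme that forms pyruvate and NADPH in the cytosol, had 11.7, 28.9 and 57.3 FPKM in the HFD libraries, against 8.04, 6.04 and 7.03 in the HTG libraries (log2 fold change -2.16, adjusted p = 0.0616).

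The alanine aminotransferase gene Gpt2 (log2 fold change -0.86, adjusted p = 0.0777), which joins pyruvate to alanine in mitochondria, also had groups that did not overlap. Gpt, its counterpart in the cytosol, did not pass the test (-0.16, 95% interval -0.67 to 0.36). Agxt, the aminotransferase that turns alanine and glyoxylate into pyruvate and glycine, was the 1 gene of the list with a higher level, at 77.4 ± 11.8 FPKM in the HFD group and 108 ± 15.8 in the HTG group (SD, n = 3; log2 fold change 0.52, unadjusted p = 0.0228). Its unadjusted p was above 0.05 without HFD library 2, HFD library 3, HTG library 2 or HTG library 3.

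Pkm is also the pyruvate kinase of macrophages. Of 8 macrophage markers, each with more than 12 counts in every library, 2 were lower in the HTG group at an unadjusted p under 0.05 (Adgre1 and Cd5l) and 0 were higher, beside 12.4% and 12.3% of all genes. The summed level of the 8 was 1137, 616 and 1106 CPM in the HFD libraries, against 770, 725 and 437 in the HTG libraries, so the groups overlapped. HFD library 2, with the most Ldha and Slc16a1, was the lowest HFD library in these markers. It was the lowest of all libraries in summed endothelial markers (70.4 CPM, against 115 to 178 in the others). The same held for stellate cell markers (72.2, against 83.6 to 137) and red cell markers (235, against 258 to 486). In hepatocyte, leukocyte and cholangiocyte markers it was not the lowest. The part of these cell types in the results was not tested.

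**Figure D4:**
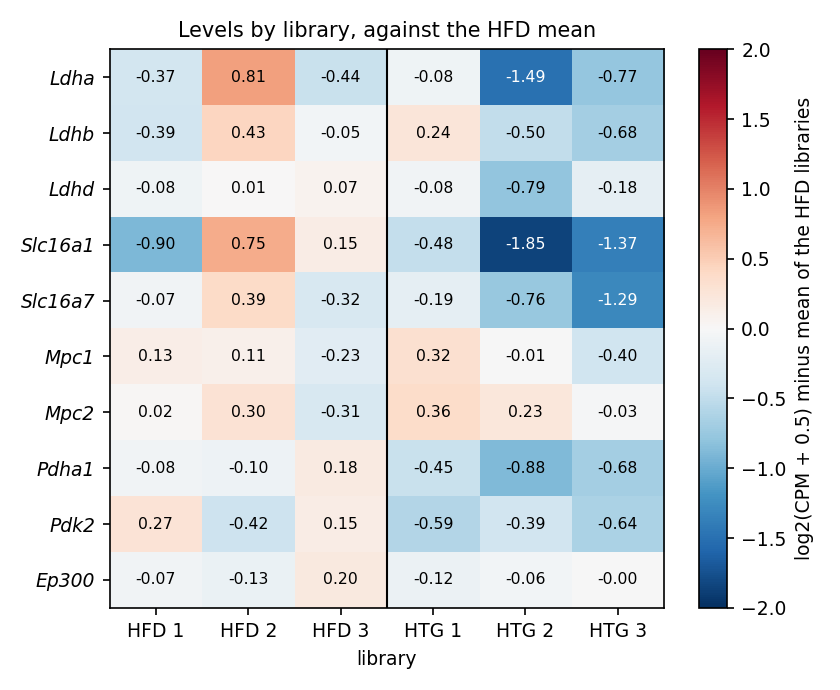
Each cell gives the log2(CPM + 0.5) of a gene in a library minus the mean of the 3 HFD libraries, by colour and number. HFD library 2 is highest for Ldha (0.81) and Slc16a1 (0.75), HTG library 2 is lowest for both (-1.49 and -1.85), and Ep300 stays between -0.13 and 0.20 in all libraries.

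HFD library 2 had the highest normalised count of 4 of the 10 genes, while HTG libraries 2 and 3 each had the lowest of 4. HTG library 1 had the highest of 2 genes, Mpc1 and Mpc2, and the lowest of 0.

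Ep300 (ENSMUSG00000055024, chromosome 15, 81469552 to 81536278) encodes p300, a coactivator that acetylates histones and can also use other acyl-CoA donors. It had 1.60, 1.39 and 1.93 FPKM in the HFD libraries, against 1.44, 1.63 and 1.46 in the HTG libraries. The HTG libraries lay inside the HFD range. The log2 fold change was -0.071 (standard error 0.16, 95% interval -0.43 to 0.29, adjusted p = 0.816), so these data bound the ratio between 0.742 and 1.22 and do not show that it was equal. Without HFD library 3 the estimate was 0.034. Crebbp, which encodes the closely related coactivator CBP, had 1.22, 1.40 and 1.16 FPKM in the HFD libraries, against 1.30, 1.55 and 1.47 in the HTG libraries (log2 fold change 0.23, 95% interval -0.17 to 0.63, adjusted p = 0.444).

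A list of 20 other genes of lysine acylation held further acyltransferases, deacylases that can remove such marks, the alanyl-tRNA synthetases that have been proposed to write lactylation, and enzymes that make acyl-CoA. All 20 were tested. At an unadjusted p under 0.05, the HTG group had a higher level of 2 and a lower level of 3, beside 12.3% and 12.4% of all genes, with 0 at an adjusted p under 0.05. The median log2 fold change was -0.081. The lysine acetyltransferase gene Kat7 had 3.38, 4.03 and 4.01 FPKM in the HFD libraries, against 2.56, 2.10 and 1.87 in the HTG libraries, without overlap (log2 fold change -0.77, adjusted p = 0.0657). Kat2a (0.50, unadjusted p = 0.0219) and its close relative Kat2b (-0.44, unadjusted p = 0.0355) had opposite signs, each without overlap of the groups in normalised counts. The unadjusted p of Kat2a was above 0.05 without HTG library 1, HFD library 2 or HTG library 2, and that of Kat2b without HFD library 1, HFD library 2 or HTG library 3. Sirt1, a deacetylase gene, had a log2 fold change of 0.45 (unadjusted p = 0.0451), and it passed in 5 of 19 alternative fits, failing when any library other than HFD library 1 was left out. The third lower gene was Acly, ATP citrate lyase (log2 fold change -2.72, unadjusted p = 0.0325), whose value rested on HFD library 3, with 192 FPKM there and 7.44 to 15.1 in the other libraries. Without that library its log2 fold change was -0.090, and its unadjusted p was also above 0.05 without HTG library 1 or HTG library 2.

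**Figure D5:**
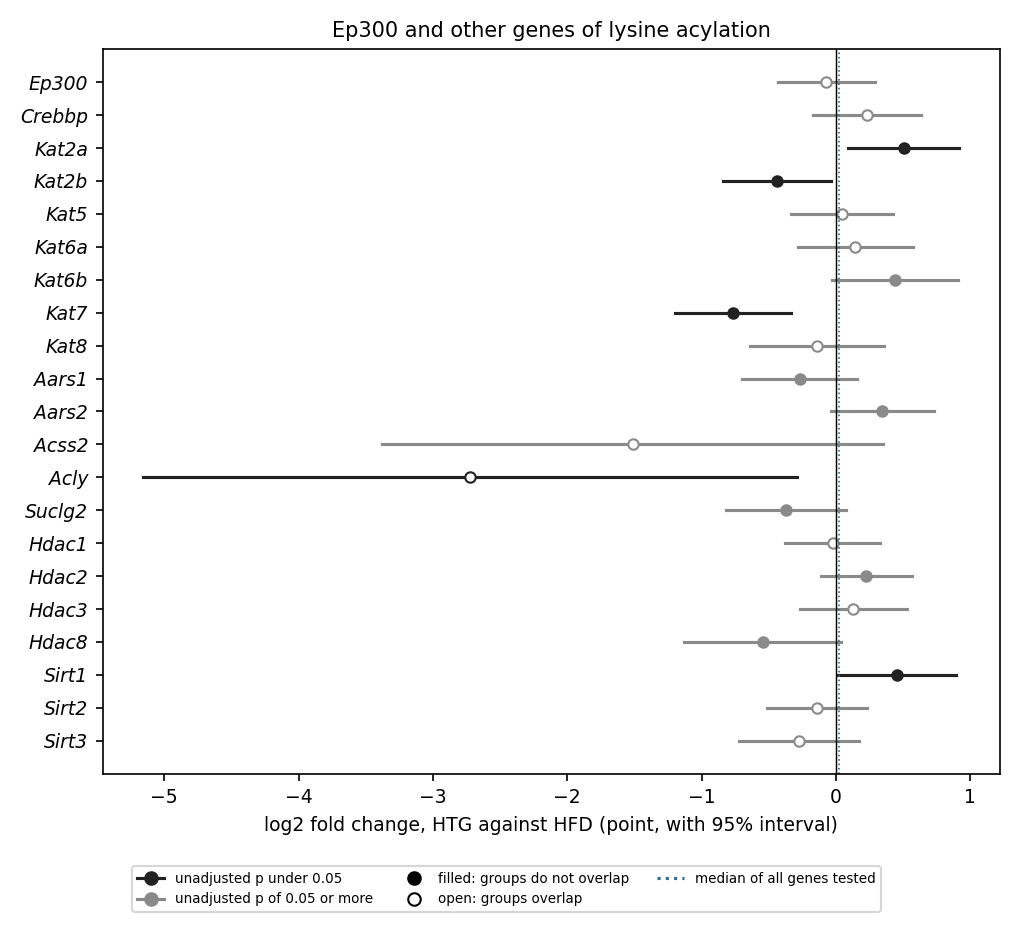
Log2 fold change, HTG against HFD, with its 95% interval for Ep300 and 20 other genes of lysine acylation. Ep300 (-0.071) lies near the dotted median of all genes tested (0.025), Kat7 (-0.77) and Kat2b (-0.44) lie below 0, Kat2a (0.50) and Sirt1 (0.45) above, and the intervals of Acly and Acss2 are the widest.

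Aars1, listed in the table under its older symbol Aars, and Aars2 encode the cytosolic and the mitochondrial alanyl-tRNA synthetase. Aars1 had 25.4, 25.3 and 27.7 FPKM in the HFD libraries, against 22.6, 19.4 and 20.8 in the HTG libraries. Its groups did not overlap, yet the test was not passed (log2 fold change -0.27, 95% interval -0.70 to 0.16, adjusted p = 0.412). Aars2 had a log2 fold change of 0.35 (95% interval -0.035 to 0.73, adjusted p = 0.242), with groups that overlapped in FPKM and not in normalised counts. The class I deacetylase genes Hdac1, Hdac2 and Hdac3, which have been proposed to remove lactylation, had log2 fold changes of -0.022, 0.23 and 0.13 and did not pass the test.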

How the data were processed

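The authors deposited 1 table with an estimated count and an FPKM value per gene and library. The deposited estimated counts were whole numbers, not normalised between libraries, and the deposited FPKM values were scaled by the authors by gene length and library total. The submitters' processing notes name HISAT2, StringTie and SAMtools without versions, and the rat build mRatBN7.2, while the rows carry mouse identifiers. Coordinates follow the table, which names no build. The labels name total RNA and the paper's methods poly(A) selection and strand marking. The design text of the series describes 6 animals in 2 groups, and the 6 libraries, 3 per group, were taken as 1 per animal.

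Counts were scaled by TMM and tested with edgeR 4.0.16 (glmQLFit, glmQLFTest, filterByExpr, group as the only term) in R 4.3.3, and p-values were adjusted over all genes tested by the Benjamini-Hochberg method. Standard errors are the fold change divided by the root of F. Ratios of FPKM were compared by exact permutation. Alternatives used DESeq2 1.42.0, limma 3.58.1 on log2(FPKM + 0.1) and log2(FPKM + 1), other filters and scalings, counts divided by 4, the replicate number as a block, and each library left out. Library totals only, and counts divided by 4 with the block, were added after the data were examined. Scripts were tested on simulated data. The genes, and the lists of related genes and of cell type markers, were chosen with earlier results of these data known. All 10 genes are named, with their direct partners, listed genes with an unadjusted p under 0.05 (up to 8 per list) and the 3 genes nearest to Ldha and to Ep300 in profile.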

Additional observations from a re-analysis of the deposited data

How the results depend on the processing

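The lower levels of Pdha1 kept their direction and an unadjusted p under 0.05 in all 19 alternative fits, and those of Slc16a1, Pdk2 and Slc16a7 kept their direction in all 19 and that threshold in 14, 10 and 13 of them. The number of lower genes among the 10 moved from 4 to 2 with the replicate number as a block and to 2 with counts divided by 4 in that fit, and lay between 1 and 4 when 1 library was left out. Over all genes the lower ones numbered 2288 of 18455, and 1941 with the block. They numbered 1797 of 14884 with counts divided by 4 and the block, and 1545 to 2866 with 1 library left out. The labels name no litter or day shared by same-numbered libraries, so the numbers were not taken as pairs. Same-numbered libraries correlated in their deviations from the group means with r of -0.13, -0.11 and 0.19, beside -0.19 to 0.29 for differently numbered ones. With 3 libraries per group, whose deviations sum to 0, these values cannot show or exclude pairing. The number with an adjusted p under 0.05 moved from 0 to 2 in DESeq2. Of the 59 related genes 53 were tested. At an unadjusted p under 0.05, 17 were lower and 3 were higher, beside 12.4% and 12.3% of all genes. The lower ones numbered 14 to 19 in the alternative fits. The higher ones numbered 0 in limma on log2(FPKM + 0.1) or log2(FPKM + 1) and 1 with the block. They numbered 1 with counts divided by 4 and the block, and 0 to 3 with 1 library left out. Related genes with an adjusted p under 0.05 numbered 0, and 12 in DESeq2, 2 with at least 10 counts in every library, 2 with counts divided by 4, 3 in limma with either pseudocount and 0 to 4 with 1 library left out. Over all genes that number was 2, and 2401 in DESeq2, 162 without a filter, 684 with at least 10 counts in every library, 822 with counts divided by 4, 878 and 884 in limma with pseudocounts of 0.1 and 1, 0 in limma without a filter, 0 with the block, 0 with library totals only and 0 to 653 with 1 library left out. The sign of Mpc1 reversed with upper-quartile scaling (0.025), counts divided by 4 (0.0031), and without HFD replicate 1, HFD replicate 2 or HTG replicate 3, where the range with 1 library left out was -0.24 to 0.16, and that of Ep300 without HFD replicate 3 (range -0.14 to 0.034). The difference in the Pdha1 to Pdhb ratio lay between -0.053 and 0.26 with 1 library left out. The causes were not tested. Depth limits what can be said of Ldhb, with 57 to 214 counts in a library, and of Pdk3, with 11 to 96.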

Other observations

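Regulators of these genes were read from a list of 7, all tested. At an unadjusted p under 0.05, 3 were lower in the HTG group and 0 were higher, beside 12.4% and 12.3% of all genes, and 0 had an adjusted p under 0.05. Hif1a, which encodes the oxygen-sensitive factor that drives Ldha and Pdk1 in many cells, had 3.79, 5.59 and 6.15 FPKM in the HFD libraries, against 3.10, 2.70 and 2.47 in the HTG libraries. The groups did not overlap, and the estimate of -0.87 for the log2 fold change (standard error 0.22) had an adjusted p of 0.0704 by the quasi-likelihood test of edgeR, with an unadjusted p under 0.05 in all 19 alternative fits. Foxo1, a factor of the fasted liver, had 3.01, 3.78 and 3.02 FPKM in the HFD libraries, against 2.30, 1.93 and 1.85 in the HTG libraries (log2 fold change -0.65, adjusted p = 0.0937). Ppara, the fatty acid receptor, had overlapping groups and a log2 fold change of -0.80 (unadjusted p = 0.0392), which was under 0.05 in 12 of 19 alternative fits and above it without HFD library 2, HFD library 3, HTG library 1 or HTG library 3.

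The genes whose profile over the 6 libraries lay nearest to that of Ldha were Hspa1b, Slc4a4 and Grn, among 8014 genes with a mean of at least 10 CPM. Their root mean square distances in centred log2 CPM were 0.181, 0.191 and 0.200. Hspa1b has a near-identical copy, Hspa1a, so its counts are uncertain. Like Ldha, all 3 were highest in HFD library 2 and lowest in HTG library 2. Nearest to Ep300 were Tgs1, Wwp2 and Shc1, with distances of 0.0319, 0.0404 and 0.0419, each with its highest value in HFD library 3.

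By the same threshold and beside the same shares of all genes, the other marker lists gave these calls. Of 8 hepatocyte markers, 1 was higher (Apoa1) and 2 were lower (Cps1 and Tat). Of 8 stellate cell markers, 1 was higher and 1 lower, and of 8 cholangiocyte markers, 1 was higher and 1 lower. Of 7 red cell markers tested, 1 was lower. The 8 leukocyte and the 8 endothelial markers gave 0 calls, as did the 1 muscle and the 2 pancreas markers that passed the filter. Of the 8 muscle markers, 5 had 0 counts in every library.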
